A study of Mus musculus with 52 samples.

Results

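Hspa1a, Hspa1b, Hspa8, Hsp90aa1, Hsph1, Dnajb1, Hspb1, Hspb8, Cryab and Bag3 are mouse genes of the cytosolic heat shock and small chaperone system. They were taken by name, 10 of the 55401 mouse genes in the deposited count table, and all 10 passed the filter on low counts in each tissue. This list, and the network and marker lists below, were chosen with earlier results of these data known. Shares of all genes beside their counts give a scale and not a test. Poly(A) RNA of FVB/NJ mice had been sequenced in 3 tissues, cerebral cortex, spinal cord and skeletal muscle. Each tissue has 3 arms: wild-type mice given vehicle (labelled FVB_WT), mice carrying human PFN1 with the C71G change given vehicle (labelled PFN1_C71G), and PFN1_C71G mice given AAV-amiR-Atxn2, an adeno-associated virus that encodes an artificial microRNA against Atxn2. PFN1 encodes profilin-1, which binds actin and is mutated in some families with amyotrophic lateral sclerosis (ALS), and Atxn2 encodes ataxin-2, which binds RNA. Age was 36 weeks, except for 11 transgenic libraries, whose mice were 38 or 39 weeks old. Females gave all 4 of these libraries in spinal cord, all 3 in muscle and 2 of 4 in cortex. No arm received a control vector, so vector and artificial microRNA cannot be told apart, and the transgene's promoter is not named in the sources used here.

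Chaperones bind unfolded proteins and help them fold, refold or reach the degradation machinery. HSP70 proteins work in a cycle that J-domain proteins start and nucleotide exchange factors end, HSP90 finishes the folding of many client proteins, and small heat shock proteins hold unfolded proteins without using ATP. Heat shock factor 1 (HSF1) raises the inducible members when unfolded proteins accumulate. Small heat shock proteins and BAG3 are also part of normal muscle, where they act at the Z-disc, and mutations in HSPB1 and HSPB8 cause motor neuropathies in people.

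There were 6 libraries per arm, except 5 of wild-type cortex and 5 of vehicle-treated transgenic muscle, with 66.5 to 111.9 M counts each. The lowest count of any of the 10 genes in a library was 98, for Hspa1a in wild-type muscle. With levels in CPM, counts scaled to the library size, human PFN1 lay between 170.17 and 1613.48 in transgenic libraries and at most at 0.01 in wild type. Vector counts were 4091 to 8971 per treated spinal cord library, 2533 to 7323 in treated cortex and only 1 to 5 in treated muscle. Atxn2 lay between 68.2 and 77.5 CPM in treated spinal cord and between 106.4 and 114.6 in vehicle-treated transgenic spinal cord. In treated muscle it lay between 55.9 and 69.9 CPM, against 61.1 to 69.3 with vehicle. Neuronal marker genes summed to at most 5.249 CPM in any muscle library, and to at least 3514 CPM in spinal cord. The labels do not say which libraries share an animal, so p-values measure the spread between these libraries. Wild-type males stood apart in several of the 10 genes, so results that rest on them are given with and without them.

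**Figure D1:**
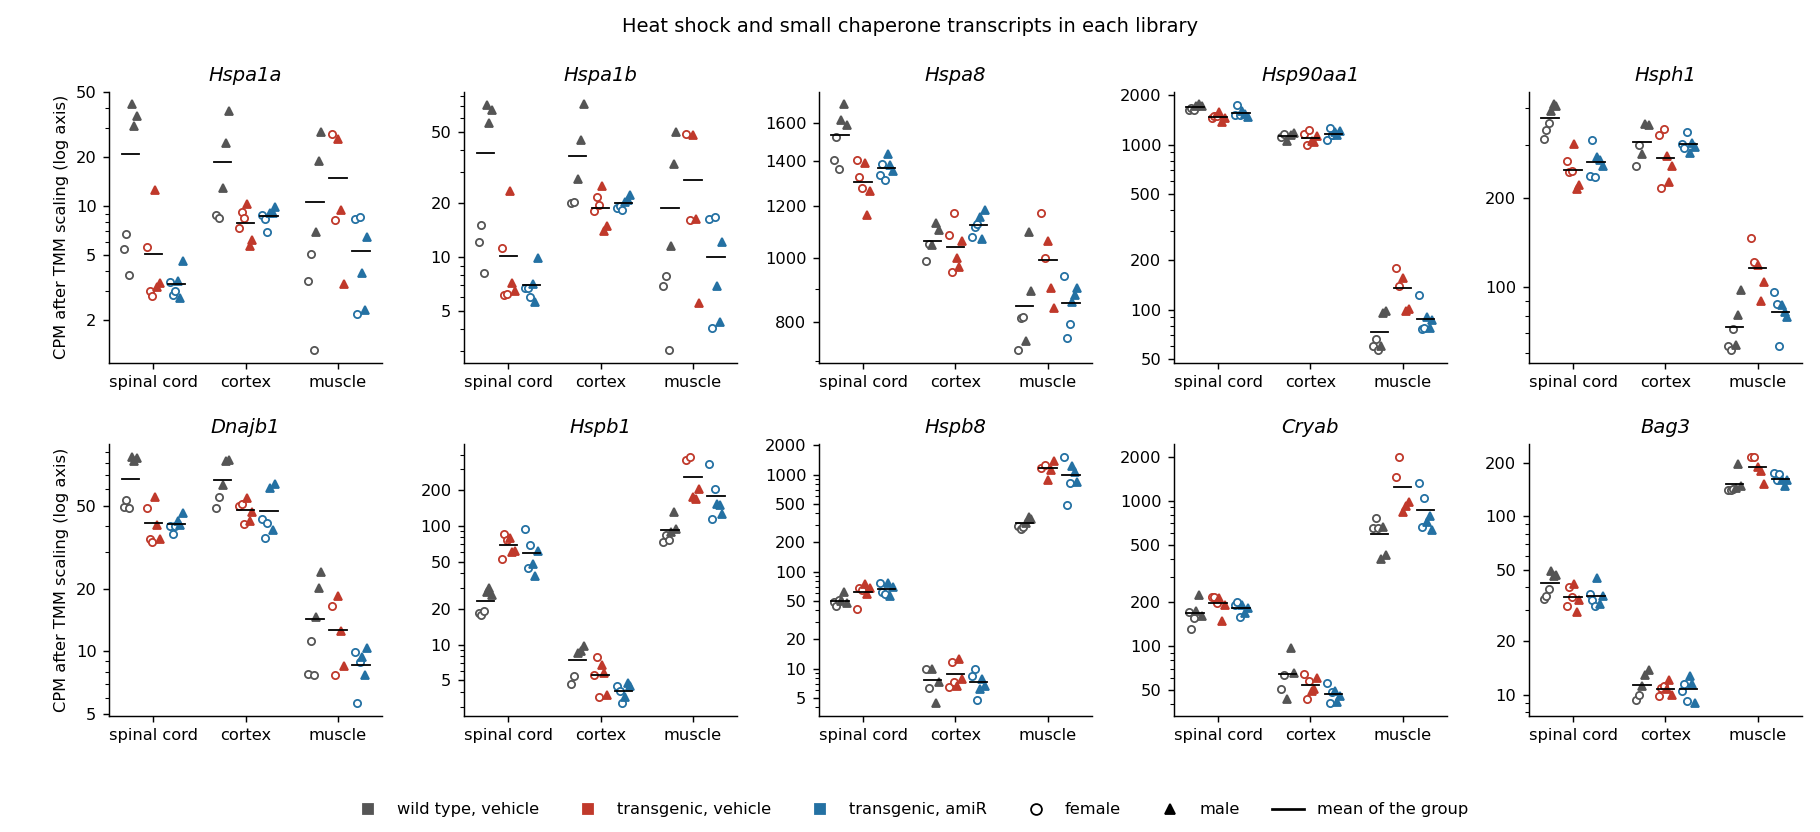
Level of each of the 10 genes in every library, as CPM after TMM scaling on a log axis, by tissue and arm (grey, wild type; red, vehicle-treated PFN1_C71G; blue, treated PFN1_C71G), with circles for females, triangles for males and a line at the group mean. Hspb1, Hspb8 and Cryab in muscle lie higher in every vehicle-treated transgenic library than in every wild-type library, while Hspa1a and Hspa1b spread widely within wild type.

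Sequence upstream of the start is shown for a few of these genes because they are known targets of HSF1, which binds repeated GAA units. Coordinates of the sequences are RefSeq's, build GRCm38.p6, each is written 5′ to 3′ on the gene's strand, and capitals mark matches to GAANNTTC or TTCNNGAA, here called an inverted pair, where N is any base and overlapping matches are joined. The 150 bases before the start of Hspa1a (chr17:34972157-34972306, minus strand), of Hspb1 (chr5:135887769-135887918, plus strand) and of Hsph1 (chr5:149636337-149636486, minus strand) read:
Hspa1a: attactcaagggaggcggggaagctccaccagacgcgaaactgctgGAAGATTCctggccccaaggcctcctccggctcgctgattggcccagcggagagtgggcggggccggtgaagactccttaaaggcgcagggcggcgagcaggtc
Hspb1: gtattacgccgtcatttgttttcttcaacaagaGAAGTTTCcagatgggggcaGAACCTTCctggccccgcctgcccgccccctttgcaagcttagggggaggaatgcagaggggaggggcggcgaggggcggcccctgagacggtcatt
Hsph1: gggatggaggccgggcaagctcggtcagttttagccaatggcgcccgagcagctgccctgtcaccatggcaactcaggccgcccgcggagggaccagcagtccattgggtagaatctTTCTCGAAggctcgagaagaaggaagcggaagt

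Matches at or after the start are shown in 30 bases each, for Hsph1 (chr5:149636287-149636316, minus strand), Hspb8 (chr5:116422840-116422869, minus strand) and Bag3 (chr7:128523603-128523632, plus strand):
Hsph1: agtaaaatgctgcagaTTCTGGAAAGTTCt
Hspb8: gccaggaGAAGTTTCtaggctcgcgagtcc
Bag3: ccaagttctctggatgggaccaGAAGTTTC

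Windows from 250 bases before to 50 bases after the start were at hand for 7 of the 10 genes (not Hspa8, Hsp90aa1 or Cryab). An inverted pair, read on both strands because its letters are their own reverse complement, was present in Hspa1a, Hspa1b, Hspb1, Hsph1, Hspb8 and Bag3, against 15.1% of 32851 windows. Neither Dnajb1 window held one. The run of 3 units (GAANNTTCNNGAA or TTCNNGAANNTTC) was in each Hsph1 window and in 0.603% of all windows. Counting the first transcribed base as 1, it lay at position 37 from the start used above and at 16 from the other RefSeq start. A match describes the letters and not a bound site. The Hspa1a and Hspa1b windows differed at 4 of 300 positions, so the sequence shown for Hspa1a stands for both closely.

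In the GENCODE M21 annotation (GRCm38), Hspa1a (ENSMUSG00000091971.3, chr17:34969190-34972156) and Hspa1b (ENSMUSG00000090877.3, chr17:34956436-34959238) are neighbouring genes of a single exon each, on the minus strand. Of the 100-base windows of Hspa1a, 47.1% also occur in Hspa1b, so the division of reads between them is uncertain, and their sum is given as well. Cryab (ENSMUSG00000032060.10, chr9:50751325-50756636) overlaps Hspb2 on the other strand. Hspb2 held up to 4296 counts in a library and the strand setting of the counting is not stated, so reads of the pair may be mixed.

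Hsp90aa1 and Hspa8 led the list in the central nervous system, and Cryab and Hspa8 led it in muscle. Lengths here join all annotated exons of a gene, 4.301 kb for Hspa8 and 7.266 kb for Hsph1. The order of the genes depends on this choice, which the SD does not cover. On the scale of CPM per kilobase of exon, wild-type spinal cord held 428 ± 16.0 (SD, n = 6) of Hsp90aa1, a stress-responsive isoform of HSP90, and 357 ± 30.6 of Hspa8, the constitutive HSP70. Cryab, which encodes alphaB-crystallin, followed at 114.5 ± 20.4 and Hsph1, the HSP110 exchange factor, at 51.0 ± 5.48. Hspb8, Hspb1 and Dnajb1 (25.8, 22.5 and 20.9) lay within each other's spread. Bag3 stood at 16.4 ± 2.51, Hspa1b at 13.6 ± 10.5 and Hspa1a at 7.04 ± 5.88, and these 3 did not differ beyond the spread of the HSP70 pair, whose libraries fell into a low and a high set. Wild-type cortex had the same leading pair (288 ± 13.0 and 247 ± 12.7, n = 5), but little Hspb8 (3.89 ± 1.24), Bag3 (4.46 ± 0.732) and Hspb1 (7.20 ± 2.15). In wild-type muscle the order was Cryab (398 ± 98.5, n = 6), Hspa8 (197 ± 31.1), Hspb8 (162 ± 18.1), Hspb1 (88.9 ± 20.7) and Bag3 (59.3 ± 8.52), with Hsp90aa1 at 18.6 ± 4.87 and Hspa1a at 3.60 ± 3.59. Hspa8 and Hspb8 in muscle lay within each other's spread.

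In spinal cord, 8 of the 10 genes differed between vehicle-treated transgenic and wild-type mice: the small heat shock proteins Hspb1 and Hspb8 rose, and Hspa1a, Hspa1b, Dnajb1, Hsph1, Hspa8 and Hsp90aa1 fell. Among all 20307 genes tested 36.8% passed, 18.8% higher and 17.9% lower, so 6 lower members of 10 stand beside a lower share of 17.9%. Without the wild-type males, a choice made after their values were seen, 3 of the 10 passed, against 32.1% of all genes: Hspb1 and Cryab higher and Hsph1 lower. In whole tissue fewer cells of a type and less RNA per cell cannot be told apart.

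Hspa1a and Hspa1b encode the inducible HSP70, which is low in unstressed tissue. Hspa1a stood at 5.49, 6.71 and 3.79 CPM in the 3 wild-type females and at 42.5, 30.8 and 36.0 CPM in the 3 wild-type males of spinal cord. Vehicle-treated transgenic females held 5.59, 3.01 and 2.82 CPM, and males 12.6, 3.20 and 3.40 CPM. Wild-type males were high and every other library was low, so that transgenic libraries overlapped wild-type females and none reached a wild-type male. The model with arm and sex gave a log2 change of −1.68 (SE 0.45, adjusted p = 0.00697), a 3.20-fold lower level, with 6 of 6 transgenic libraries below the wild-type mean. Hspa1b followed the same pattern: 12.2, 15.1 and 8.21 CPM in wild-type females, 71.2, 56.2 and 66.3 CPM in wild-type males, and 6.13 to 23.6 CPM in transgenic libraries, with a log2 change of −1.62 (SE 0.41, adjusted p = 0.00442). The sum of the pair changed by −1.64 (SE 0.42, adjusted p = 0.00519). The log2 changes without the wild-type males were −0.35 for Hspa1a (adjusted p = 0.575) and −0.47 for Hspa1b (adjusted p = 0.393). The call of Hspa1a was also lost without the 4 libraries whose title and library name disagree on treatment, at −1.06. Among them are vehicle-treated transgenic replicates 5 and 6, both male. That leaves replicate 4, at 12.6 CPM, as the only male of that arm.

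**Figure D2:**
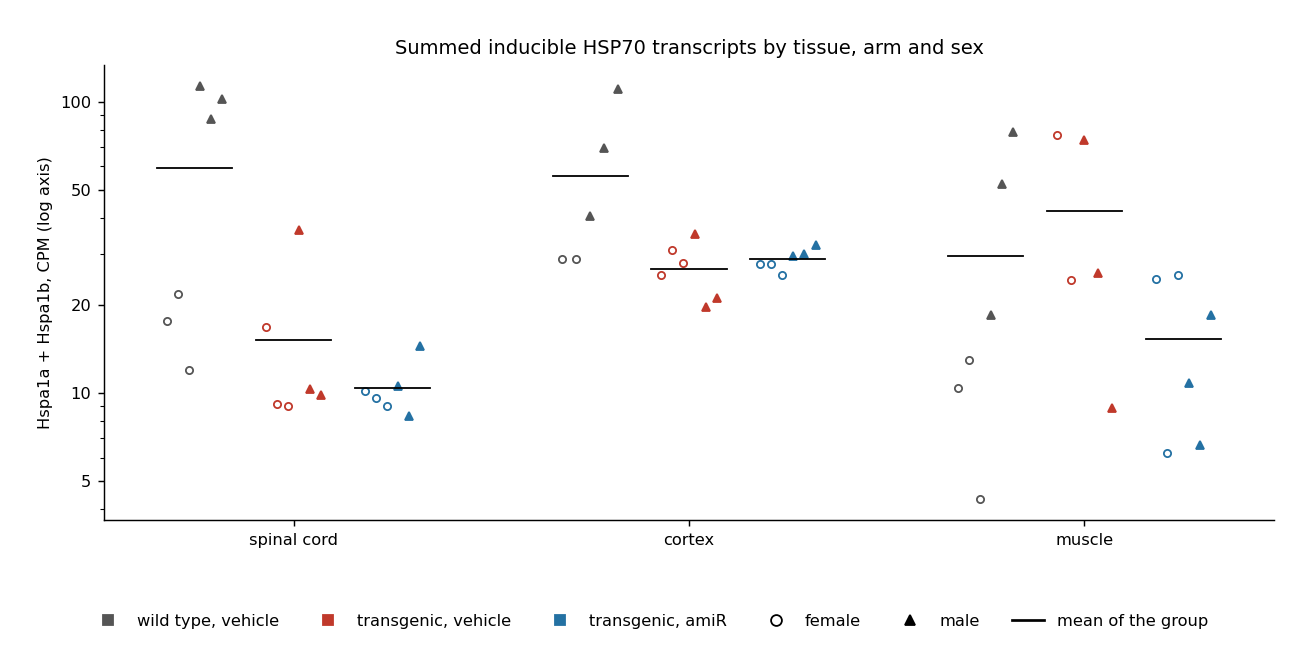
Summed CPM of Hspa1a and Hspa1b in every library on a log axis, by tissue, arm and sex, with each point a library. Wild-type males of spinal cord lie between 87.0 and 113.6, and no wild-type female of that tissue lies above 21.9.

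Dnajb1, the J-domain partner of inducible HSP70, showed the same split in a milder form. It stood at 49.1, 53.2 and 48.4 CPM in wild-type females of spinal cord, at 85.8, 81.3 and 84.5 CPM in wild-type males, and at 33.5, 37.5 and 54.9 CPM (lowest, median, highest) in vehicle-treated transgenic libraries. The log2 change was −0.67 (SE 0.13, adjusted p = 0.000519), and −0.37 without the wild-type males (adjusted p = 0.0588). Hsph1 did not rest on them. Its 6 wild-type libraries ran from 315.7 over a median of 374.3 to 413.9 CPM and its 6 transgenic libraries from 213.6 over 245.2 to 302.3 CPM, with no overlap. Hsph1 fell by 0.57 on the log2 scale (SE 0.09, adjusted p = 9.74e-05), and by 0.43 without the wild-type males (adjusted p = 0.0113).

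Hsp90aa1 and Hspa8 fell by little. Hsp90aa1 had 1611, 1690 and 1765 CPM (lowest, median, highest) in wild-type spinal cord and 1378, 1470 and 1585 CPM in vehicle-treated transgenic spinal cord, with no overlap. Its log2 change was −0.19 (SE 0.05, adjusted p = 0.00557). Hspa8 had 1364, 1557 and 1710 CPM against 1162, 1300 and 1407 CPM, with 6 of 6 transgenic libraries below the wild-type mean and a log2 change of −0.23 (SE 0.06, adjusted p = 0.0043). Both calls were lost without the wild-type males, at −0.13 each, and with library size alone in place of TMM scaling. That scaling moved the median of all genes by 0.096 and the share of called genes that were higher from 51.2% to 72.9%.

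Hspb1 encodes HSP27, a small heat shock protein of glia, motor neurons and muscle. In spinal cord it stood at 18.3, 17.7 and 19.2 CPM in wild-type females, at 27.8, 30.2 and 26.0 CPM in wild-type males, and at 52.5, 68.6 and 86.0 CPM (lowest, median, highest) in vehicle-treated transgenic mice. Every transgenic library was above every wild-type library, and Hspb1 rose 2.99-fold (log2 change 1.58, SE 0.21, adjusted p = 1.73e-05). Leaving out the wild-type males gave a log2 change of 2.06 (adjusted p = 5.74e-05). Hspb8, the partner of BAG3 in delivering proteins to autophagy, had 44.4, 49.0 and 61.1 CPM in wild type and 41.4, 65.6 and 74.4 CPM in transgenic libraries, which overlapped. Its log2 change of 0.31 (SE 0.11, adjusted p = 0.0444) lay at the threshold and lost the call in 19 of 32 alternative settings, some of them leaving out 1 library. Cryab changed by 0.23 (SE 0.11, adjusted p = 0.12) and did not pass in all libraries. It was called at 0.32 without wild-type replicate 5, at 0.31 without vehicle-treated transgenic replicate 5, and at 0.42 without the wild-type males (adjusted p = 0.0164). Cryab changed by 0.46 in females alone (adjusted p = 0.0179) and by −0.03 in males alone (adjusted p = 0.91). Bag3, a co-chaperone that exchanges nucleotide on HSP70 and binds small heat shock proteins, changed by −0.24 (SE 0.10, adjusted p = 0.0719), and was called at −0.28 without wild-type replicate 1 and at −0.30 without vehicle-treated transgenic replicate 2.

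Because wild-type males stood apart, sex was tested within arms, in a model chosen after the values were seen. In wild-type spinal cord Hspa1a was higher in males by 2.78 on the log2 scale (SE 0.44, adjusted p = 0.0148) and Hspa1b by 2.45 (SE 0.42, adjusted p = 0.0234). These were 2 of the 10 genes, against 0.143% of all genes, and Dnajb1 at 0.74 did not pass (adjusted p = 0.0865). In the vehicle-treated transgenic arm the male minus female difference of Hspa1a was 0.75 (adjusted p = 0.313). The transgene effect on Hspa1a in spinal cord differed between the sexes by −2.03 (males minus females, SE 0.60, adjusted p = 0.0448), 1 of the 10 genes against 10.3% of all genes. In wild-type cortex (0.0345% of all genes called) and wild-type muscle (2.33%) none of the 10 passed with edgeR, with 5 and 4 at an unadjusted p under 0.05. The male minus female difference of Hspa1a there was 1.54 (adjusted p = 0.817) and 2.45 (adjusted p = 0.136), in the same direction as in spinal cord. The difference of the transgene effect between the sexes passed for none of the 10 in cortex (0.0% of all genes) or muscle (0.112%) with edgeR, with 3 and 8 at an unadjusted p under 0.05. For the model split by sex, no count over all genes at that p is given beside these counts.

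Immediate early genes and RNA integrity were compared in the same wild-type libraries. Summed CPM of 12 immediate early genes, transcripts that respond within minutes to stimulation or handling, ran from 171.5 to 204.0 in wild-type females and from 224.6 to 240.4 in wild-type males of spinal cord. In muscle the sums were 424.2 to 650.4 and 878.5 to 958.7, and in cortex, where they overlapped, 706.4 to 1142 and 1076 to 2373. Vehicle-treated transgenic spinal cord had sums of 226.6 to 272.2 in females and 221.4 to 261.6 in males. Hspa1a ran from 2.82 to 12.6 CPM in those transgenic libraries. Atf3, Egr2, Jun and Junb of these genes were called higher in transgenic than in wild-type females of spinal cord. Sums of the 2 arms therefore also carry the transgene comparison and cannot be read as handling alone. None of the 12 passed between the sexes in wild-type spinal cord with edgeR, with 1 at an unadjusted p under 0.05. RNA integrity numbers were 7.4 to 7.5 in wild-type males and 7.2 to 8.3 in wild-type females of spinal cord, so the males lay inside the females' range. Sex and any handling that differed with sex cannot be told apart, and their part in the result was not tested.

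Markers of other cells moved in the same spinal cord libraries. The 7 reactive astrocyte markers summed to 220.1 to 327.3 CPM in wild type and 951.6 to 1294 CPM in vehicle-treated transgenic mice, with 6 of 7 higher (Timp1 by 4.03 and Vim by 2.72 on the log2 scale). The 8 microglial markers summed to 176.1 to 247.1 and 485.8 to 595.2 CPM, with 7 of 8 higher, among them Aif1 (1.91) and Cd68 (4.05). All 6 motor neuron markers were lower, with sums of 189.5 to 221.8 against 37.7 to 157.5 CPM, Chat by −0.88 and Slc18a3 by −1.12. The 6 general neuron markers summed to 4773 to 5221 against 3635 to 3927 CPM, and 4 of them were lower. Their part in the changes of the 10 genes was not tested.

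Around the 10 genes, 59 tested genes of the wider cytosolic chaperone network gave 23 lower, 6 higher and 30 not called in spinal cord, with a median log2 change of −0.12 against −0.00 over all genes. These are 39.0% lower and 10.2% higher, beside 17.9% and 18.8% of all genes. HSP90 and its co-chaperones had 8 of 13 lower and none higher, led by Stip1 (−0.41), the adaptor between HSP70 and HSP90, Fkbp4 (−0.38), Ahsa1 (−0.32) and Fkbp5 (−0.31). Chaperonins, the ring-shaped folding machines, had 6 of 10 lower, with small values such as −0.19 for Cct7 and −0.14 for Cct6a. Of 9 J-domain genes 3 were lower, Dnaja4 (−0.46), Dnajc5 (−0.31) and Dnaja1 (−0.24). Of 8 HSP70 and HSP110 relatives 3 were lower, Hspa12a (−0.59), Hspa4l (−0.49) and Hspa4 (−0.17), and Hspa2 was higher (0.30). Among the other genes that rose, Flnc, the filamin that BAG3 helps to turn over, changed by 1.66 (SE 0.19), Hspb6 by 0.68, Synpo2 by 0.45 and Hspb11 by 0.25. Of the 4 regulators, Hsbp1 was higher (0.14), Hsf4 lower (−0.31), and Hsf1 and Hsf2 were not called. When the wild-type males were left out 11 network genes were lower and 4 higher, 25.4% of the network beside 32.1% of all genes, and no chaperonin was called. Of the other genes named here Ahsa1, Fkbp5, Hspa2, Synpo2 and Hsf4 also lost their calls in that fit.

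**Figure D3:**
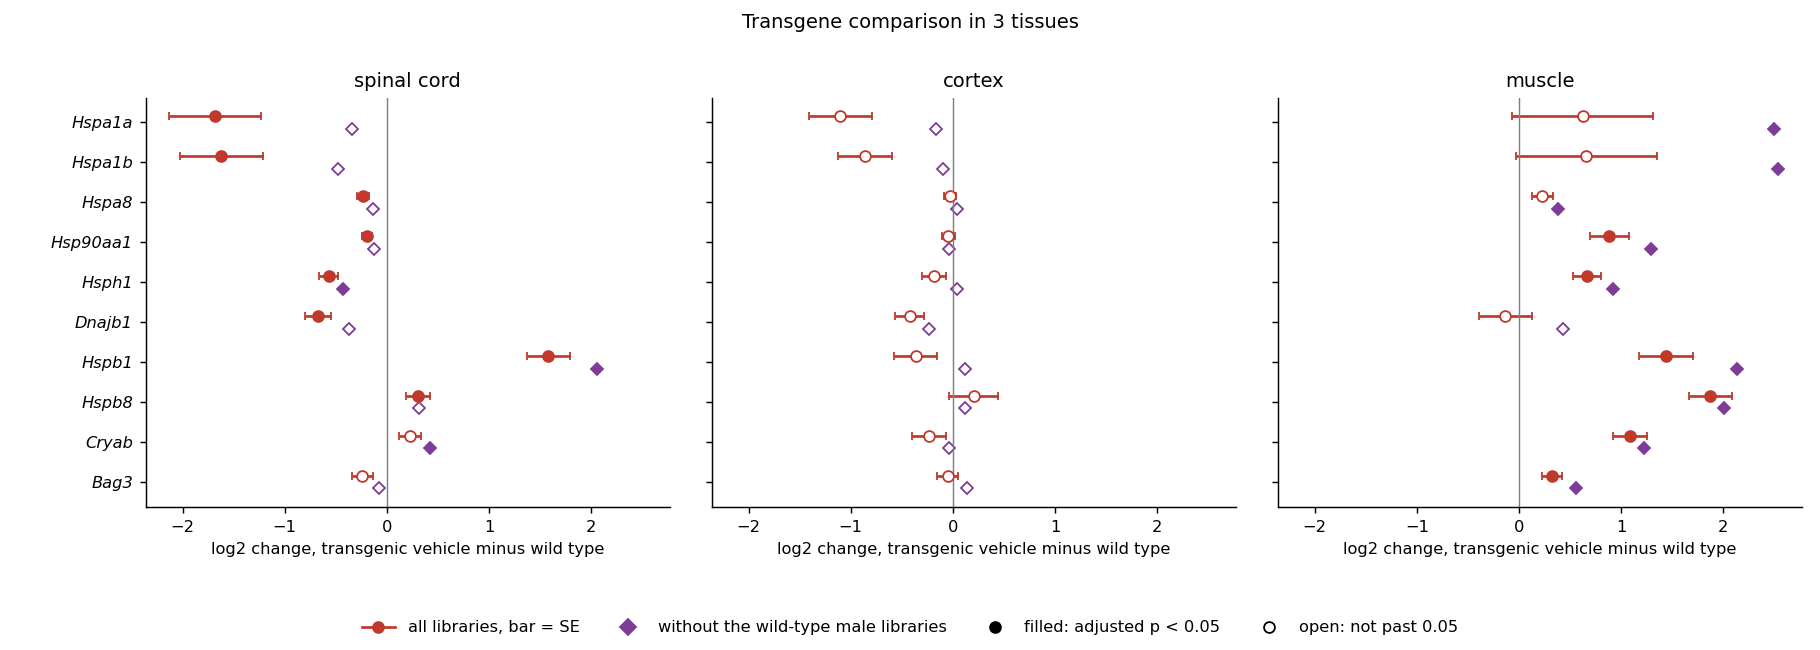
Log2 change between vehicle-treated PFN1_C71G and wild-type libraries for each of the 10 genes in each tissue, with lines for 1 SE (circles, all libraries; diamonds, without the wild-type males; filled, adjusted p under 0.05). In spinal cord Hspb1 lies at 1.58 and Hspa1a at −1.68, and in muscle 9 of 10 circles lie above 0.

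Treatment with AAV-amiR-Atxn2 moved none of the 10 genes past the threshold in spinal cord, where 5.11% of all genes passed. No member had an unadjusted p under 0.05 with edgeR, where 4746 of 20307 genes did, and DESeq2 called 0. Hspb1 ran from 38.1 over a median of 54.7 to 94.6 CPM in treated libraries, across the whole range of vehicle-treated transgenic libraries. Its log2 change was −0.23 (SE 0.20, adjusted p = 0.54). Hspa1a ran from 2.74 over 3.22 to 4.60 CPM, with a log2 change of −0.51 (SE 0.44, adjusted p = 0.524), and the other 8 changes lay between −0.46 (Hspa1b) and 0.10 (Hspb8). Without the 4 libraries whose title and library name disagree on treatment, the positive changes turned negative and none was called. They were −0.045 for Hspa8, −0.014 for Hsp90aa1, −0.151 for Hsph1 (adjusted p = 0.0924), −0.023 for Hspb8 and −0.195 for Bag3. The libraries left out are vehicle-treated replicates 5 and 6, both male, and treated replicates 1 and 2, both female. Sex is then unbalanced between the arms, so labels and sex balance cannot be told apart in these shifts. The wider network had 6 of 59 higher and none lower: the chaperonins Tcp1 (0.22), Cct4 (0.19) and Cct2 (0.20), Hspa12a (0.27), Fkbp5 (0.34) and Cacybp (0.18). Among markers, the motor neuron genes Prph and Chat were higher with treatment, and summed motor neuron markers ran from 161.7 to 402.4 CPM. Reactive astrocyte markers ran from 492.9 to 1149 CPM and microglial markers from 282.2 to 582.1 CPM, each reaching below the vehicle-treated range.

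Against wild type, treated spinal cord still differed in 7 of the 10 genes, where 25.5% of all genes passed, 14.6% higher and 11.0% lower. This comparison shares the wild-type libraries with the one above. Hspb1 was 2.55-fold higher (log2 change 1.35, SE 0.21, adjusted p = 0.000148) with every treated library above every wild-type library, and Hspb8 was higher by 0.41 (SE 0.11, adjusted p = 0.0144). Hspa1a was 4.56-fold lower (log2 change −2.19, SE 0.47, adjusted p = 0.00209), Hspa1b changed by −2.08 (SE 0.42, adjusted p = 0.00134), Dnajb1 by −0.68 (SE 0.13, adjusted p = 0.000822) and Hsph1 by −0.49 (SE 0.09, adjusted p = 0.000704). Hspa8 was lower by 0.17 (adjusted p = 0.0448), a call lost in 19 of 32 alternative settings. Hspb1 alone passed without the wild-type males, at 1.81 (adjusted p = 0.00038), where 20.1% of all genes passed. Hsp90aa1 (−0.11) and Bag3 (−0.23) did not pass, and were called without treated replicate 2 and without treated replicate 4 in turn, at −0.14 and −0.29.

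In cortex none of the 10 genes passed in any comparison with edgeR in all libraries. Between vehicle-treated transgenic and wild-type mice 0.0247% of all genes passed, and DESeq2 called 0 of the 10. With edgeR 3 of the 10 had an unadjusted p under 0.05, as did 752 of all 20278 genes. Hspa1a stood at 8.89 and 8.51 CPM in the wild-type females, at 13.0, 24.6 and 38.5 CPM in the wild-type males, and at 5.74, 7.87 and 10.3 CPM (lowest, median, highest) in vehicle-treated transgenic libraries. The wild-type males were again the high libraries. The log2 change was −1.10 (SE 0.31, adjusted p = 0.995), and −0.16 without them. Hspa1b (−0.86) and Dnajb1 (−0.42) had the same sign, and Hspb1 had a log2 change of −0.36 (SE 0.21). With those males left out the values were −0.10 for Hspa1b, −0.24 for Dnajb1 and 0.12 for Hspb1, none of them called.

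Treatment changed none of the 10 genes in cortex past the threshold (0.0197% of all genes called, 0 of the 10 by DESeq2). With edgeR 2302 of all 20278 genes had an unadjusted p under 0.05, and 1 of the 10 did. The one gene was Hspb1, with 3.20, 4.25 and 4.71 CPM (lowest, median, highest) in treated libraries against 3.58, 5.60 and 7.92 CPM with vehicle, overlapping, at a log2 change of −0.45 (SE 0.20, adjusted p = 0.41). Between treated transgenic and wild-type cortex 1.12% of all genes passed. None of the 10 did with edgeR. An unadjusted p under 0.05 was found for 5 of the 10 and for 3710 of all 20278 genes. DESeq2 called 4: Hspa1a, Hspa1b, Dnajb1 and Hspb1. Hspb1 stood at 4.67 and 5.44 CPM in wild-type females and 8.52, 8.81 and 9.65 CPM in wild-type males, so treated libraries overlapped the females only, and its log2 change was −0.81 (SE 0.21, adjusted p = 0.0637), with a call at −0.79 when vehicle-treated transgenic replicate 2 was left out. That change was −0.33 without the wild-type males. In the wider network Cct4 and Cct5 were higher in treated than in wild-type cortex, 2 of 60. None passed in the other comparisons of cortex with edgeR, while DESeq2 called 0 (transgene) and 1 (treatment). At an unadjusted p under 0.05 were 1 (transgene) and 20 (treatment) of the network genes. Of all 20278 genes 752 and 2302 were.

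In muscle the transgene went with a rise of small heat shock proteins and of HSP90 and HSP110. Of the 10 genes, 6 were higher in vehicle-treated transgenic than in wild-type mice and none lower: Hspb8, Hspb1, Cryab, Hsp90aa1, Hsph1 and Bag3. Among 16949 genes tested 50.5% passed, 25.7% higher and 24.8% lower. With library size alone the median of all genes moved by 0.345 and 87.7% of called genes were higher, against 50.9% with TMM, and the same direction held for all 6. Without the wild-type males, a choice made after their values were seen, 9 of the 10 were higher, all but Dnajb1, where 35.0% of all genes passed. Wild type was then 3 females. For genes that were high in those males, leaving them out raises the difference in advance. In males alone Hspa1a (−0.44) and Hspa1b (−0.39) had the other sign and were not called.

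With all libraries Hspb8 had the largest fold of the 10 in muscle, and its log2 change was 2.01 when the wild-type males were left out (adjusted p = 0.000329). It stood at 272.7, 307.0 and 361.8 CPM (lowest, median, highest) in wild type and at 1156 and 1256 CPM in the transgenic females and 877.8, 1107 and 1392 CPM in the males. The groups were far apart, and Hspb8 rose 3.66-fold (log2 change 1.87, SE 0.21, adjusted p = 2.2e-06). Hspb1 had 73.6, 86.3 and 132.3 CPM in wild type, 358.9 and 385.2 CPM in transgenic females and 174.4, 169.3 and 204.9 CPM in transgenic males. All were above wild type, the females most, and Hspb1 rose 2.72-fold (log2 change 1.44, SE 0.27, adjusted p = 0.000277). The log2 change was 2.13 when the wild-type males were left out (adjusted p = 0.000117), 2.25 within females (adjusted p = 6.97e-05) and 0.80 within males (adjusted p = 0.0302). Cryab had 395.2, 645.7 and 758.8 CPM in wild type, 1452 and 2015 CPM in transgenic females and 833.7, 916.8 and 976.9 CPM in transgenic males. The groups did not overlap and Cryab rose 2.13-fold (log2 change 1.09, SE 0.17, adjusted p = 6.39e-05). The gap between the sexes within transgenic muscle did not pass for Hspb1 (males minus females −1.03, adjusted p = 0.127) or Cryab (−0.93, adjusted p = 0.106), and 1 of these 2 females was over 36 weeks old.

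Hsp90aa1 had 56.5, 63.4 and 98.6 CPM (lowest, median, highest) in wild-type muscle, 179.6 and 138.9 CPM in transgenic females and 154.7, 98.6 and 101.4 CPM in transgenic males. All 5 lay above the wild-type mean and the lowest met the highest wild-type library. Hsp90aa1 rose 1.84-fold (log2 change 0.88, SE 0.19, adjusted p = 0.00108), and its call was lost in males alone, at 0.52. Hsph1 had 61.2, 68.2 and 98.1 CPM in wild type and 89.9, 119.1 and 146.6 CPM in transgenic libraries, with a small overlap and a log2 change of 0.67 (SE 0.14, adjusted p = 0.000845). Bag3 had 139.6, 143.1 and 196.0 CPM in wild type, the last of them far above the other 5, and 150.9, 187.7 and 216.0 CPM in transgenic libraries. Its log2 change of 0.32 (SE 0.10, adjusted p = 0.0121) fell short in males alone and with a replicate block.

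The inducible HSP70 genes varied most within arms. Hspa1a stood at 3.496, 5.058 and 1.303 CPM in wild-type females of muscle, at 6.95, 18.8 and 28.4 CPM in wild-type males, at 27.8 and 8.25 CPM in transgenic females and at 25.8, 9.49 and 3.32 CPM in transgenic males. The arms overlapped over nearly their whole ranges, and the log2 change was 0.63 (SE 0.69, adjusted p = 0.47). It was 2.50 without the wild-type males (adjusted p = 0.0208), and 2.54 for Hspa1b (adjusted p = 0.0183). That fit left out libraries already seen to be high, which raises the change in advance. In males alone Hspa1a changed by −0.44 (adjusted p = 0.643) and Hspa1b by −0.39 (adjusted p = 0.697), the other direction. Hspa8 changed by 0.23 (SE 0.11, adjusted p = 0.0835) and was called at 0.33 without wild-type replicate 5 and at 0.29 without vehicle-treated transgenic replicate 5. Dnajb1 changed by −0.13 (SE 0.26, adjusted p = 0.697).

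Fibre type, denervation and fibroblast markers moved strongly in the same muscles. The 7 slow fibre markers summed to 91.1 to 324.3 CPM in wild type and 415.9 to 3629 CPM in vehicle-treated transgenic muscle, all 7 higher (Tnnt1 by 4.31 and Tnni1 by 4.32 on the log2 scale). The 7 fast fibre markers summed to 99660 to 129600 CPM and 44500 to 76500 CPM, with 6 lower, such as Atp2a1 (−1.11) and Tnnt3 (−0.73). All 8 denervation markers were higher, with sums of 57.3 to 91.7 against 949.0 to 1696 CPM, led by Runx1 (4.40) and Chrna1 (3.93). All 4 fibroblast markers were higher as well (219.9 to 671.1 against 859.5 to 1805 CPM), and so were all 8 microglia and macrophage markers (6.27 to 23.0 against 38.5 to 45.8 CPM). Their part in the rise of the small heat shock proteins was not tested.

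Of 60 tested network genes in muscle, 21 were higher, 14 lower and 25 not called, with a median log2 change of 0.09 against 0.01 over all genes. These are 35.0% higher and 23.3% lower, beside 25.7% and 24.8% of all genes. Among small heat shock relatives Hspb7, a cardiac and skeletal muscle member, rose by 1.32 and Hspb6 by 0.37, while Hspb2 fell by 0.38. Of 8 HSP70 and HSP110 relatives 4 were higher: Hspa4l (1.03), Hspa2 (0.57), Hspa4 (0.42) and Hspa13 (0.25). Of 10 chaperonins 5 were higher, led by Cct3 (0.60), Cct8 (0.32), Cct2 (0.29) and Cct4 (0.29). HSP90 partners went both ways, with Hsp90ab1 (0.27) and Stip1 (0.22) higher and 5 of 13 lower, among them Fkbp5 (−0.72), Fkbp4 (−0.50), Unc45b (−0.38), the myosin chaperone, and Sugt1 (−0.23). J-domain genes were 4 higher (Dnajb4 0.49, Dnajb6 0.30, Dnajb2 0.26, Dnajc5 0.16) and 3 lower (Dnajb5 −0.81, Dnaja2 −0.19, Dnajc7 −0.15) of 9. Of 11 partners Flnc (0.89), Bag2 (0.41) and St13 (0.20) were higher, and Synpo2 (−0.42), Stub1 (−0.38) and Bag5 (−0.18) lower. Of the 4 regulators Hsf2 was higher (0.42), and Hsbp1 (−0.25) and Hsf1 (−0.13) lower. The counts were 19 higher and 10 lower without the wild-type males, 48.3% of the network beside 35.0% of all genes.

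Treated muscle, which held almost no vector transcript, gave no call for any of the 10 genes against vehicle (1.12% of all genes called with edgeR). At an unadjusted p under 0.05 there were 5 of the 10 and 3235 of all 16949 genes. DESeq2 called 3, Hsp90aa1, Hsph1 and Cryab. All 10 estimates were below 0, with a median of −0.52 against 0.003 over all genes. They come from the same libraries and are not 10 separate observations. With arm and sex removed, Pearson r in muscle was 0.95 for Hspa1a with Dnajb1 and 0.13 for Hspa1a with Hspb8. Without mice older than 36 weeks the estimate of Hspb8 was 0.016. Hsph1 had 63.2, 84.9 and 96.7 CPM (lowest, median, highest) in treated muscle, all 6 libraries below the vehicle-treated transgenic mean, and a log2 change of −0.49 (SE 0.14, adjusted p = 0.0828). Hsp90aa1 had 76.2, 81.9 and 122.5 CPM, again all below that mean, and changed by −0.61 (SE 0.19, adjusted p = 0.108). Cryab had 632.2, 747.2 and 1331 CPM, 5 of 6 below it, and changed by −0.54 (SE 0.17, adjusted p = 0.108). With library size alone the median of all genes moved by −0.133, 12.6% of called genes were higher against 68.4% with TMM, and the same 3 genes were called. Fibroblast markers summed to 321.8 to 783.7 CPM in treated muscle, below every vehicle-treated transgenic library, denervation markers to 287.9 to 1194 CPM and slow fibre markers to 387.0 to 2267 CPM, whose part in these values was not tested. In the wider network none of 60 passed with edgeR, and DESeq2 called 2. At an unadjusted p under 0.05 were 14 of the 60, beside 3235 of all 16949 genes.

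**Figure D4:**
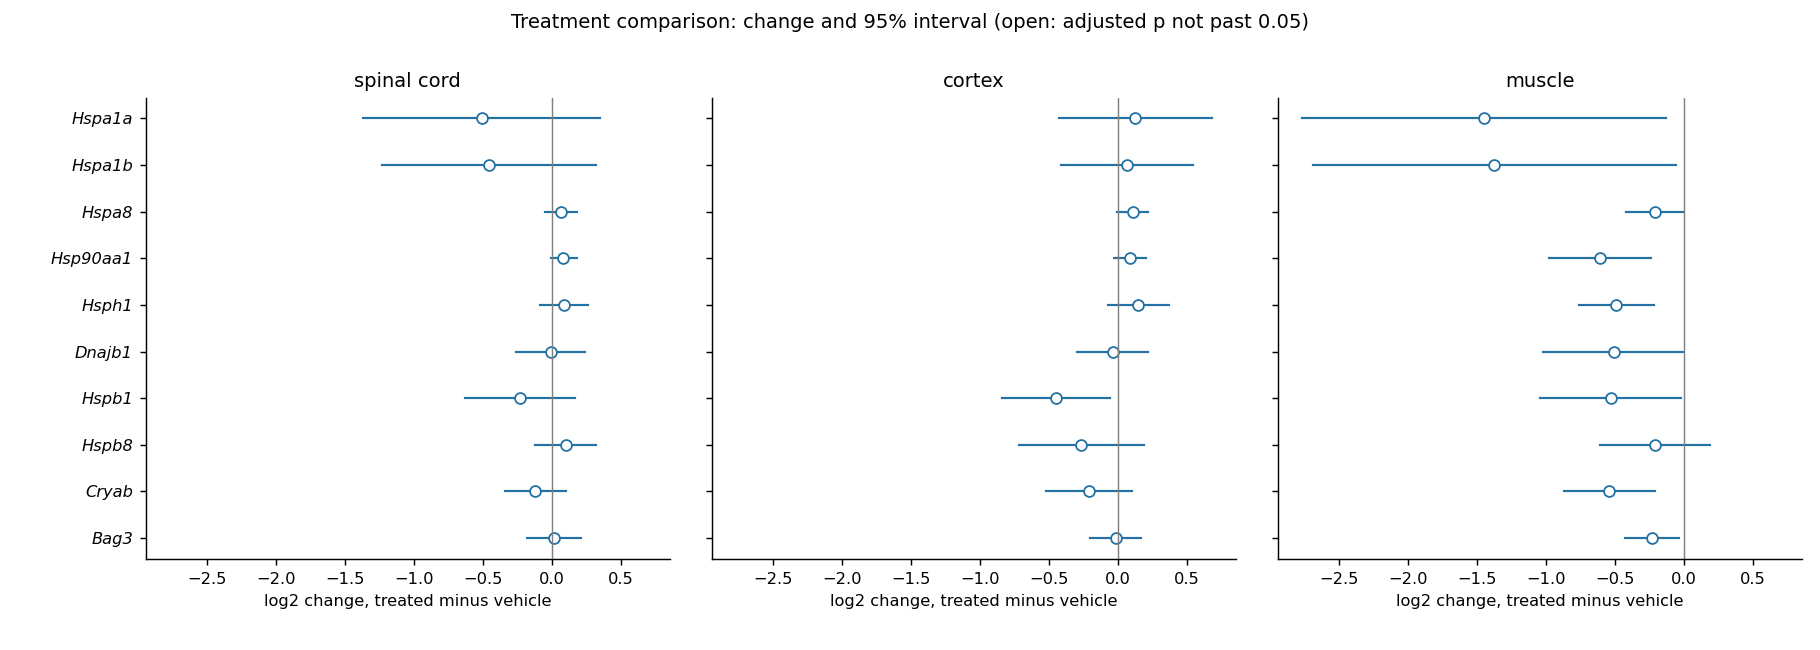
Log2 change between treated and vehicle-treated PFN1_C71G libraries for each of the 10 genes in each tissue, with lines for an approximate 95% interval from the SE. The lines are narrower than the F test implies. For Hspa8 in muscle the line runs from −0.42 to −0.01, while the F test gave an unadjusted p of 0.06. None passed the threshold with edgeR, and in muscle all 10 points lie below 0, from −1.45 for Hspa1a to −0.21 for Hspb8. The points of a tissue come from the same libraries.

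Against wild type, treated muscle kept 3 higher genes of 10, where 35.2% of all genes passed and 17.5% were higher. Hspb8, with 491.3, 954.3 and 1535 CPM (lowest, median, highest), was above every wild-type library and 3.16-fold higher (log2 change 1.66, SE 0.20, adjusted p = 1.17e-05). Hspb1, with 113.5, 150.9 and 335.6 CPM, overlapped wild type at its lower end and rose by 0.91 (SE 0.25, adjusted p = 0.0104). Cryab rose by 0.55 (SE 0.16, adjusted p = 0.0152), a call lost without the sex term and in females alone. Hsp90aa1 (0.27), Hsph1 (0.18) and Bag3 (0.09) did not pass. Dnajb1 changed by −0.64 (adjusted p = 0.058) and was called in 10 of 30 alternative settings, 5 of which left out 1 library, while its log2 change was −0.12 without the wild-type males (adjusted p = 0.827). Bag3 was called at 0.20 without wild-type replicate 5. Without the wild-type males, a choice made after their values were seen, 5 genes were higher, where 20.8% of all genes passed. Hsp90aa1 (0.67) and Bag3 (0.31) were the additional ones.

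The differences between tissues were tested in a joint model of 22316 genes. The transgene effect differed between spinal cord and muscle for 8 of the 10 genes, against 31.0% of all genes. Each of the 8 was lower in spinal cord relative to muscle, from −0.49 (Hspa8, SE 0.11, adjusted p = 0.000504) to −2.33 (Hspa1a, SE 0.76, adjusted p = 0.0147), with Hsph1 at −1.27 (SE 0.17, adjusted p = 7.44e-08) and Hspb8 at −1.60 (SE 0.28, adjusted p = 1.13e-05). The exceptions were Dnajb1 (−0.57, adjusted p = 0.111) and Hspb1 (0.11, SE 0.33, adjusted p = 0.879), which had risen in both tissues. Leaving out the wild-type males, 8 genes passed as well. Between spinal cord and cortex 1 gene of 10 differed, against 9.68% of all genes: Hspb1, by 1.93 (SE 0.35, adjusted p = 9.34e-05), and by 1.95 without the wild-type males.

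Between cortex and muscle the transgene effect differed for 6 genes, against 27.7% of all genes. They were Hspb1 (−1.82), Hspb8 (−1.69), Cryab (−1.34), Hsp90aa1 (−0.94), Hsph1 (−0.86) and Bag3 (−0.39), all higher in muscle. The call of Bag3 (adjusted p = 0.0477) was lost without the wild-type males (−0.43, adjusted p = 0.119) and without mice older than 36 weeks (−0.34, adjusted p = 0.137). Hspa1a (−2.64, adjusted p = 0.0182) and Hspa1b (−2.62, adjusted p = 0.0156) were called when the wild-type males were left out, a choice made after their values were seen. With library size alone the medians of all genes moved by −0.213 between spinal cord and muscle and by −0.305 between cortex and muscle, and these 6 kept their direction. The treatment effect differed between spinal cord and muscle for Hsp90aa1 (0.67, SE 0.17, adjusted p = 0.0204), 1 gene against 3.04% of all genes. Between cortex and muscle it differed for Hsp90aa1 (0.68, SE 0.17, adjusted p = 0.0214) and Hsph1 (0.62, SE 0.17, adjusted p = 0.0365), against 2.54%. Without mice older than 36 weeks these treatment differences kept their direction but lost the call. Hsp90aa1 then stood at 0.55 between spinal cord and muscle (adjusted p = 0.284). Between cortex and muscle Hsp90aa1 stood at 0.60 (adjusted p = 0.217) and Hsph1 at 0.61 (adjusted p = 0.154). Between spinal cord and cortex none differed with edgeR (0.0672% of all genes called), and none had an unadjusted p under 0.05, where 2136 of 22316 genes did.

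The genes whose levels ran most alike across libraries are given by Pearson r of log2 CPM over all libraries of a tissue, which share arm and sex, so r is a description. Hspa1a ran with Hspa1b (r = 0.997, 18 libraries), Dnajb1 (0.964) and Dedd2 (0.936) in spinal cord. Hspb1 in spinal cord ran most closely with Ncf1 (0.971), a subunit of the phagocyte NADPH oxidase, Itm2b (0.97) and Cst3 (0.97), and Hsp90aa1 with Stip1 (0.936). In the 17 muscle libraries Hspb8 ran with Rras2 (0.984), Cryab with Scn2a (0.962), and Hspb1 with Hnrnpc and Tnfrsf12a (0.956 each). With arm and sex removed as separate terms, which leaves a difference between the sexes within an arm in place, r was 0.76 there for Hspb1 with Hspb8, 0.78 for Hspb1 with Cryab and 0.76 for Hspb8 with Cryab. In cortex Cryab ran with Erbb3 (0.944, 17 libraries) and Hspb8 with Agtrap (0.953).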

How the data were processed

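RNA had been isolated from tissue powder with a Qiagen kit, made into libraries with the Kapa mRNA HyperPrep kit and sequenced as paired ends, per the labels' protocols. The authors deposited RSEM expected counts per gene, not normalized, and 6.98% of the values were not whole. The submitters' processing notes list the builds GRCm38 and GRCh38 and, without roles, DESeq2 1.34.0, RSEM 1.3.2, STAR 2.7.2d and bcl2fastq 2.20. Lines other than mouse genes held no more than 0.1672% of any library. Symbols and positions come from GENCODE M21, which gave a symbol to 55141 of 55401 gene IDs.

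Counts were rounded. The tissues were fitted separately in edgeR 4.0.16 (R 4.3.3; filterByExpr, TMM, arm and sex, quasi-likelihood F tests), and every adjusted p is Benjamini-Hochberg over all genes tested in that fit (20307 in spinal cord, 20278 in cortex, 16949 in muscle), with a threshold of 0.05. Differences between tissues came from a joint model of the 52 libraries. CPM are TMM-scaled. Alternatives were DESeq2 1.42.0, other scaling, filters and covariates, subsets of libraries, each library left out, and 3 added after the data were seen (arms split by sex, and fits without wild-type males, per tissue and joint). The scripts were tested on simulated data. Libraries of a group differed by more than counting error (chi-square of 13.0 or more per gene). In 4 spinal cord libraries title and library name give opposite treatments. Groups follow the titles, and vector counts were 0 in every spinal cord library titled as vehicle and at least 4091 in every one titled as treated.

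The 10 genes, the network lists and the marker lists were chosen with earlier results of these data known. Named are all 10 genes, and by smallest adjusted p up to 4 higher and up to 4 lower called genes of each network list. Up to 2 of each marker list are named, and genes nearest to each of the 10 by Pearson r (mean of at least 1 CPM, prior count 0.5).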

Additional observations from a re-analysis of the deposited data

Results flagged for a closer look

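Of 90 groups of libraries, 7 held a library whose gap to its nearest neighbour was a large share of the group's range, where chance gives about 5% of groups. Wild-type replicate 5 of muscle was the highest for Hspb1 (132.3 CPM, next 94.75, gap 0.64 of the range) and for Bag3 (196.0 CPM, next 148.5, gap 0.842). Treated replicate 1 of muscle was the highest for Hsp90aa1 (122.5 CPM, next 89.73, gap 0.708). Vehicle-treated transgenic replicate 4 of spinal cord, a male, was the highest for Hspa1a (12.57 CPM, next 5.592, gap 0.716) and Hspa1b (23.62 CPM, next 11.3, gap 0.704). Treated replicate 6 of spinal cord was the highest for Hspa1b (9.962 CPM, next 7.128, gap 0.655) and treated replicate 4 for Bag3 (45.31 CPM, next 36.55, gap 0.638).

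The effect of the transgene differed between tissues, by the joint model, in 15 cases. Between spinal cord and cortex it was Hspb1, by 1.929 on the log2 scale. Between spinal cord and muscle the differences were −0.494 for Hspa8, −1.106 for Hsp90aa1, −1.27 for Hsph1, −0.596 for Bag3, −0.894 for Cryab, −1.602 for Hspb8, −2.305 for Hspa1b and −2.333 for Hspa1a. Between cortex and muscle they were −1.822 for Hspb1, −0.938 for Hsp90aa1, −0.864 for Hsph1, −0.389 for Bag3, −1.338 for Cryab and −1.687 for Hspb8. The effect of treatment differed in 3 cases, 0.667 for Hsp90aa1 between spinal cord and muscle, and 0.677 for Hsp90aa1 and 0.618 for Hsph1 between cortex and muscle. In spinal cord the transgene effect on Hspa1a differed between males and females by −2.028.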

How the results depend on the processing

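No gene of the 10 that was called with all libraries changed sign under any of the 32 alternatives in spinal cord or the 30 each in cortex and muscle. Uncalled values changed sign in 83 fits of 32 results, none called in either fit, among them Hspb1 for the transgene in cortex (−0.36, and 0.12 without wild-type males) and Hspa1a for treated against wild-type muscle (−0.82 and 0.93). The counts below are of the 10 genes called. Vehicle-treated transgenic against wild-type spinal cord gave 3 in females alone and 3 without wild-type males, where all libraries gave 8. Treated against wild-type spinal cord gave 1 and 1 in the same settings, where all libraries gave 7. Treated against wild-type cortex gave 4 with DESeq2, and 0 to 1 with each library left out, the 1 being without vehicle-treated transgenic replicate 2. Treatment in muscle gave 3 with DESeq2, 3 with library size alone and 3 in the joint model. Treated against wild-type muscle gave 5 with library size alone and 5 without wild-type males. The treatment difference between spinal cord and muscle gave 2 with library size alone, 0 without mice older than 36 weeks and 2 without wild-type males, and that between cortex and muscle gave 0 without the older mice. The cause of these shifts was not tested. With library size alone the share of called genes that were higher was 40.3% for treatment in spinal cord (57.2% with TMM). For treated against wild type it was 85.4% in muscle (49.8%), 70.1% in spinal cord (57.1%) and 45.8% in cortex (59.2%). Replicate numbers did not pair the libraries (like-numbered libraries had r of −0.46 to 0.36 in spinal cord, in cortex r ran from −0.45 to 0.51, and in muscle from −0.29 to 0.39). With a replicate block the counts were 8 and 6 for the vehicle-treated and treated arms against wild type in spinal cord, 5 and 3 in muscle, and 0 in the other comparisons within tissues. Intervals rest on 5 or 6 libraries per arm, not on depth.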
